A study of Mus musculus with 4 samples.

Results

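The genes described here are 34 members of fibroblast growth factor (FGF) signalling in the mouse. Among them are 22 genes of the Fgf family and the 4 receptors Fgfr1 to Fgfr4. The rest are the feedback inhibitors Spry1, Spry2, Spry4, Spred1, Spred2 and Dusp6, and the transcription factor genes Etv4 and Etv5. All 34 were chosen by name, not by any measured value, out of 21887 protein-coding genes of the RefSeq annotation used. Earlier results of these data were known when the choice was made. What was measured around them is where CTCF was bound, as peaks of chromatin immunoprecipitation and sequencing (ChIP-seq). Each gene's window was its RefSeq span on mm10 with 50 kb added at both ends, and peaks of the 4 tissues that shared at least 1 base were joined into a site. The 34 windows covered 5933 kb and held 385 of the 121759 sites found across the genome.

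All embryos were wild type (WT) and of the B6CBAF1 strain, and there was 1 library per tissue. Posterior trunk carried the stage label E10 and was pooled from about 30 embryos, staged from E9.75 in the protocol; the piece held tailbud, presomitic mesoderm and a few somites, with the hindlimb buds avoided. Brain (telencephalon pooled from 6 embryos), distal forelimb and proximal forelimb carried the stage label E12.5, and both forelimb lists are marked in their titles as data analysed again. A CTCF peak list holds no expression values, so the labelled tissues could not be checked against marker genes, and with 1 library each differences between tissues come with neither a replicate check nor a p-value.

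The lists held 106662 peaks in the posterior trunk, 74127 in brain, 64793 in distal and 63873 in proximal forelimb. Read totals are not in the lists, so absolute depth is unknown. Relative depth, read from the lowest local background, was 2.21 in the posterior trunk, 2.02 in brain, 1 in distal and 1.08 in proximal forelimb. Posterior trunk thus differed from the other tissues in tissue, stage, list length and depth at the same time, and these cannot be told apart. Patterns are therefore given as deposited and after the recovered pileups were scaled down to the depth of distal forelimb and a −log10 p of at least 5 was required in every list, so the scaled patterns carry both steps at once.

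FGF ligands bind receptor tyrosine kinases at the cell surface and, through the RAS and MAPK cascade, switch on ETS transcription factors such as Etv4 and Etv5, while Dusp6, Sprouty and Spred proteins damp the same cascade. In the limb bud the apical ectodermal ridge secretes Fgf4, Fgf8, Fgf9 and Fgf17, and Fgf10 from the mesenchyme below induces and maintains that ridge; in the tailbud Fgf3, Fgf4, Fgf8, Fgf17 and Fgf18 are made where the trunk is still growing. CTCF is a zinc-finger DNA-binding protein that halts cohesin and so anchors chromatin loops, and most of its binding sites are used in many cell types.

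CTCF sites near these genes were most often called in every tissue. Of the 385 member sites, 190 were called in all 4 tissues, a share of 49.4% (exact binomial 95% interval 44.2 to 54.5%), against 42.4% of all sites of the genome. The median coding-gene window had 50% of its sites called in all 4 tissues, and the median member window also had 50%, so the members were like other gene windows in this respect. These intervals, and all others given here, cover counting error only. The next largest class was posterior trunk only, with 111 sites or 28.8% (24.4 to 33.6%), against 28.4% of all sites. Brain-only sites numbered 6 (1.56%, 0.574 to 3.36%), against 5.92% of all sites. The distal forelimb had 11 sites of its own (2.86% of member sites), against 3.11% of all sites. The proximal forelimb had 5 (1.299%), against 2.23% of all sites. As deposited, brain-only sites thus made up a smaller share near FGF genes than across the genome, while the trunk-only share was at the genome's level.

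After scaling to equal depth the windows held 317 sites, and 180 of them were called in all 4 tissues (56.8%), against 53.6% of all sites. Trunk-only sites numbered 61, or 19.2%, against 19.7% of all sites. Brain-only sites numbered 2 after scaling (0.631%, 0.0765 to 2.26%), against 1.69% of all sites, a share inside that interval, so the smaller brain-only share was no longer beyond counting error. Distal-only sites numbered 14 and proximal-only sites 8, where the shares over all sites were 3.56% and 2.89%. Of the 111 trunk-only sites, 56 were again trunk only after scaling. Those 56 lay at rank percentiles 21.8 to 59.5 of the trunk list (median 35.8), where 100 is the strongest peak of a list, and the other 55 lay at 1.19 to 22.4 (median 12.8). The scaled cut acts on the −log10 p that also sets the rank, so a gap in rank between both sets was built in. The trunk-only sites near FGF genes were weak to middling peaks of their own list. Trunk-only sites were so across the genome too, with a median percentile of 19.9 over all of them and 22.4 near the members. Sites were also narrower when fewer tissues called them, with a median width of 265 bases for sites of 1 tissue and 563.5 bases for sites of all 4. Over all sites of the genome these widths were 252 and 544 bases. A site runs from the lowest start to the highest end of its joined peaks, so joining more lists can itself widen it.

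**Figure D1:**
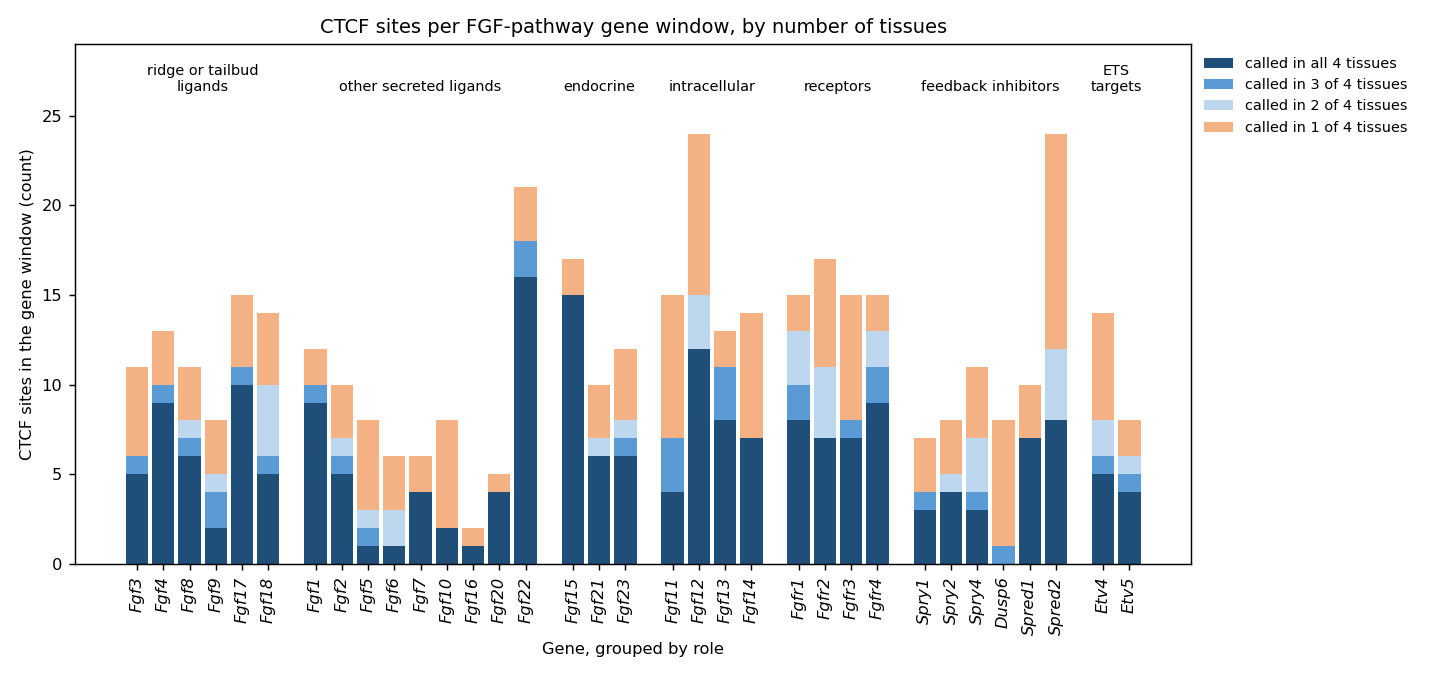
Stacked bars give the number of CTCF sites in the window of each of the 34 genes, grouped by role along the x axis and coloured by how many of the 4 tissues called the site. Counts run from 2 in the Fgf16 window to 24 in the Fgf12 and Spred2 windows, and Dusp6 has no site called in all 4 tissues.

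The merged windows of the 6 apical ridge and tailbud ligands (Fgf3, Fgf4, Fgf8, Fgf9, Fgf17 and Fgf18) were denser in CTCF sites than those of the other members, although Fgf9 alone, at 5.63 sites per 100 kb, was below the median of the other members. Their merged windows held 65 sites, or 10.6 per 100 kb, against 331 sites or 6.14 per 100 kb in the windows of the other 28 members. These lists share sites, because the window of the endocrine ligand Fgf15 overlaps those of Fgf3 and Fgf4. The 5 sites common to all of these windows and the 6 common to Fgf4 and Fgf15 count in both lists, and also among the endocrine ligands. By gene, the median density was 10.6 sites per 100 kb for the ridge and tailbud ligands, 7.16 for the other members and 7.23 for all coding genes, whose middle 50% ran from 4.02 to 10.1. Other roles were as dense, with 12.4 sites per 100 kb over the merged windows of the endocrine ligands and 10.5 over those of the receptors. Of the ridge and tailbud sites 34 were called in all 4 tissues (52.3%, 39.5 to 64.9%), against 165 of the other members' sites (49.8%, 44.3 to 55.4%), so the shares overlapped within counting error. The spans of the ridge and tailbud ligands are short and made up 15.3% of their windows, against 49.0% for the other members. Density inside the spans was 10.7 sites per 100 kb for the ridge and tailbud ligands and 3.94 for the others. In the flanks it was 10.6 sites per 100 kb for the ridge and tailbud ligands and 8.26 for the others. The long spans of the intracellular FGF homologous factors, with 2.41 sites per 100 kb, weighed on the other members; without those factors the other members had 7.38 in their spans and 8.73 in their flanks.

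**Figure D2:**
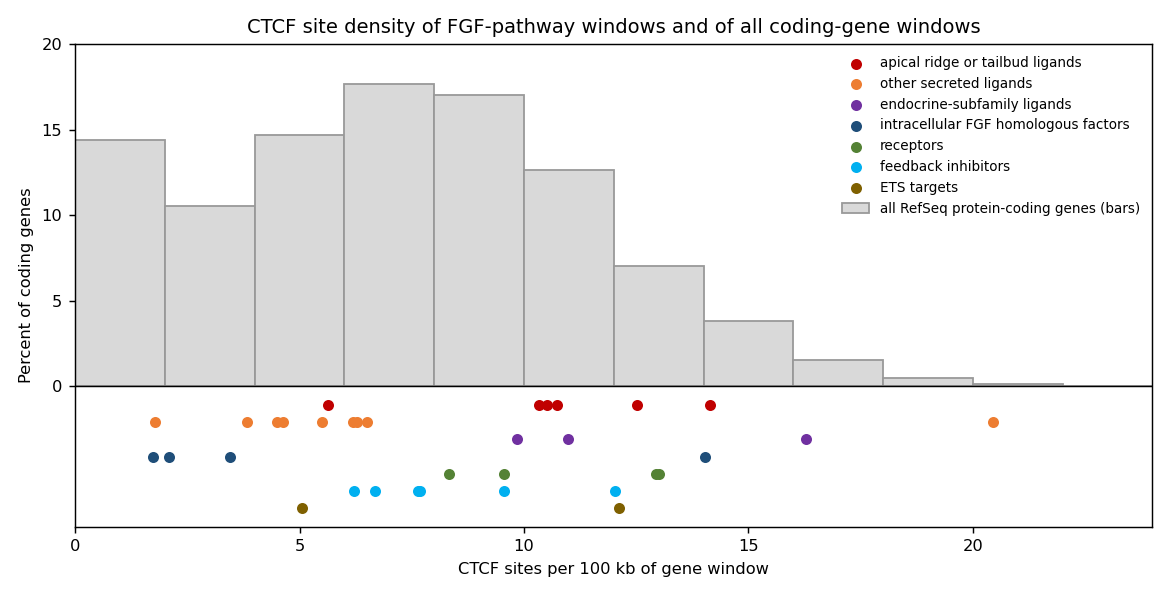
The x axis gives CTCF sites per 100 kb of window and the y axis the percent of coding genes. Grey bars show all 21887 coding genes and the coloured dots under them the 34 members by role, 1 row per role. The median is 10.6 for the ridge and tailbud ligands and 7.23 for all coding genes, with Fgf22 at 20.4 and Fgf14 at 1.74.

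Of the 34 ridge and tailbud sites that all tissues shared, 2 overlapped a ridge or tailbud gene, whose spans made up 15.3% of the windows. In all, 10 sites overlapped these spans, 5 of them in Fgf9, so 20% were called in all 4 tissues. Of the 104 sites that overlapped the other members' spans 45 were (43.3%), against 42.4% of all sites. With only 10 sites, no difference in this share can be read from the counts. Outside, 31 of the 52 ridge and tailbud sites more than 1 kb from the span were called in all 4. Sites called in all 4 tissues flanked the span on both sides in 5 of the 6 ridge and tailbud windows and in 18 of the other 28, or 23 of all 34, against 59.8% of coding genes. Fgf9 was the exception, with shared sites on its low-coordinate side and within the gene.

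Fgf8, a ridge and tailbud ligand whose known enhancers lie partly in the neighbouring gene Fbxw4, had 11 sites, 6 of them called in all 4 tissues and none overlapping its span. Its strongest shared site, chr19:45746088-45746914, lay 3.15 kb past the high-coordinate end, near the nucleoplasmin-family gene Npm3. That site stood at percentile 89.8 in the posterior trunk, 92.6 in brain, 96.1 in distal and 94.7 in proximal forelimb. The authors' folds over local background there were 9.26 in trunk, 11.7 in brain, 15.2 in distal and 14.4 in proximal forelimb. All 4 tissues thus had it among their stronger peaks. On the low-coordinate side, towards Fbxw4, shared sites 13.8 kb and 18.6 kb from the span stood between percentiles 59.3 and 77.1 in the 4 lists. The outermost site on that side, chr19:45694178-45694604, 41.9 kb away, was called in the posterior trunk (59.1) and brain (47.0) and in neither forelimb list. The outermost on the opposite side, chr19:45788888-45789216, 45.9 kb away, was called in the posterior trunk (33.5), distal forelimb (32.6) and proximal forelimb (8.90) and not in brain. Both patterns were the same after scaling, and the 3 trunk-only sites of the window were not called in any tissue then.

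Fgf3 and Fgf4, and the endocrine ligand Fgf15, lie side by side on chromosome 7, so their windows share sites: 5 sites belonged to all 3 windows, 6 more to Fgf4 and Fgf15, and 2 more to Fgf3 and Fgf4. The strongest shared site of both Fgf3 and Fgf4, chr7:144845971-144846912, lay 2.62 kb past the end of Fgf3 and between it and Fgf4. It stood at percentile 94.3 in the posterior trunk, 89.7 in brain, 86.3 in distal and 87.5 in proximal forelimb. Within the 2 genes themselves there was little. A site in Fgf3, chr7:144838722-144839058, was called in the posterior trunk (32.2), brain (8.30) and distal forelimb (8.62), and a weak site in Fgf4 was called in the posterior trunk alone (3.41) and not after scaling. Close to Fgf15, which signals from the gut to the liver in adult mice, 8 consecutive sites between chr7:144887650 and chr7:144914529 were all called in every tissue. The strongest of these, chr7:144906749-144907679, stood at 84.4 in trunk, 87.3 in brain, 91.6 in distal and 92.2 in proximal forelimb. Fgf15 in consequence had 15 of 17 sites called in all 4 tissues and the second highest density of the members, 16.3 per 100 kb. Upstream of Fgf3, 3 sites were trunk only before and after scaling, at percentiles 35.9 to 43.0.

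Fgf9, made in the ridge and in many epithelia, had the fewest shared sites of these ligands: 2 of 8, against 5 to 10 for the other 5. Its strong shared site, chr14:58034398-58035325, lay 35.3 kb before the gene at percentiles 93.6 in trunk, 90.5 in brain, 87.8 in distal and 89.0 in proximal forelimb. The gene itself held 5 sites, more than any other ridge or tailbud ligand, and the tissues differed in which of them were called. A site within the gene, chr14:58084254-58084631, was called in all 4 at 65.6 in trunk, 44 in brain, 47.9 in distal and 27.5 in proximal forelimb. Another, chr14:58075477-58075842, was called in the posterior trunk (55.3), brain (31.0) and proximal forelimb (31.2) and not in distal forelimb. Of the remaining 3, chr14:58070357-58070684 at the start of the span was called in the posterior trunk (46.9), chr14:58071152-58071365 in distal forelimb (16) and chr14:58092664-58092870 in proximal forelimb (15.4), each in that tissue only. All of these patterns were the same after scaling.

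Fgf17, a close relative of Fgf8, had the densest window of the 6, with 15 sites or 14.1 per 100 kb and 10 of them called in all 4 tissues. The strongest by its lowest rank, chr14:70645450-70646040, lay 3.18 kb past the high-coordinate end and stood at 88.2 in trunk, 91.3 in brain, 90.7 in distal and 90.4 in proximal forelimb. Another on the opposite side, chr14:70629185-70629950, 6.25 kb away in the gene Dmtn, stood at 96.1 in trunk, 98.0 in brain, 92.8 in distal and 88.0 in proximal forelimb. The gene itself held a shared site at 73.0 in trunk, 55.8 in brain, 56.5 in distal and 47.7 in proximal forelimb. Fgf17 was thus enclosed within 10 kb by shared sites from the upper part of every list. The trunk-only sites of the window numbered 3, at 33.8 to 51.6, and the one at chr14:70635550-70635886, 0.317 kb from the span, was the strongest of them.

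Fgf18, also of the Fgf8 subfamily, had 14 sites and 5 called in all 4 tissues. The site chr11:33148133-33148864, 0.733 kb before the gene on its promoter side, stood at 88.6 in the posterior trunk, 83.8 in brain, 79.99 in distal and 83.9 in proximal forelimb. A pair further out on the same side, at 22.9 kb and 29.02 kb, stood at 83.8 or higher in every list. The weaker Fgf18 sites differed in which list ranked them higher. Within the gene, chr11:33122744-33123179 was called in the posterior trunk (65.8) and brain (24.7) only. At 9.50 kb past the gene's end, chr11:33106772-33107470 was called in all 4, at 71.1 in trunk, 30.1 in brain, 40.3 in distal and 29.4 in proximal forelimb. On the opposite side, chr11:33182713-33183134 was called in the posterior trunk (69.1), brain (27.1) and distal forelimb (41.8) and not in proximal forelimb, and chr11:33192817-33193142 in the posterior trunk (40.1) and distal forelimb (14.0). A pair of sites stood higher in a forelimb list. At 4.22 kb past the gene's end, chr11:33112343-33112748 was called in the posterior trunk (9.14) and proximal forelimb (24.3), and in proximal forelimb only after scaling. Within the gene, chr11:33120128-33120362 was called in the posterior trunk (12.6) and distal forelimb (17.3), and in distal forelimb only after scaling. Percentiles of lists of different length do not show a change between tissues, so the site called in all 4 was ranked again among the 51657 sites that every tissue called. On that scale, called shared rank below, it stood at 40.6 in the posterior trunk, 8.81 in brain, 26.1 in distal and 15.9 in proximal forelimb, still highest in the trunk.

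**Figure D3:**
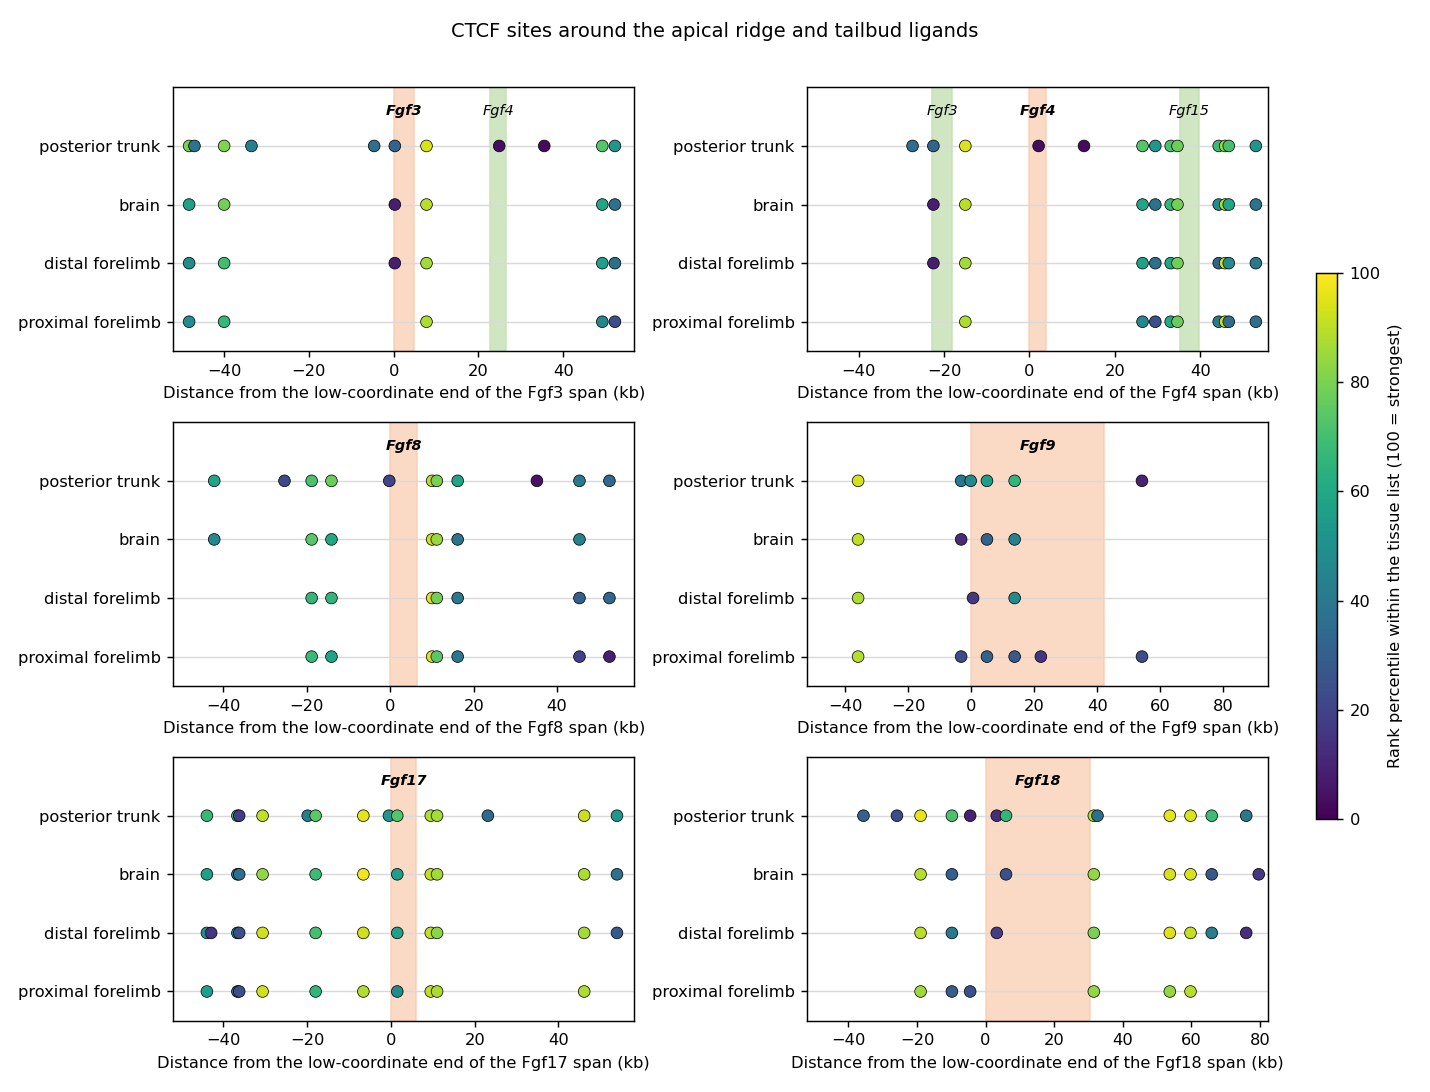
Each panel shows the window of 1 ridge or tailbud ligand, with distance from the low-coordinate end of its span in kb on the x axis and 1 row per tissue. Each dot is a CTCF site called in that tissue, coloured by its rank percentile in the list (100 is the strongest), and shading marks gene spans. Columns of 4 dots are sites called in every tissue, such as the strong ones beside Fgf8 and Fgf17, and the Fgf9 span has dots in unlike rows.

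Among the other 9 secreted ligands 43 of 78 sites were called in all 4 tissues (55.1%). Fgf10, the mesenchymal ligand that the ridge depends on, had weak CTCF sites compared with the ridge ligands. Its strongest shared site, chr13:118762935-118763499 within the gene, stood at 71.3 in the posterior trunk, 54.2 in brain, 49.2 in distal and 39.5 in proximal forelimb, and the lowest of these was the lowest such value of any member with a shared site. Of its 8 sites 2 were called in all 4, and 4 were trunk only before and after scaling, at 29.3 to 47.5. The trunk-only sites ran from just before the start of the gene into it, and chr13:118714591-118715081 lay on the promoter itself (percentile 38.6, fold 4.06). A proximal-only site, chr13:118819844-118820062, lay 27.3 kb past the gene (percentile 17.1, fold 3.94). The distal forelimb list had no Fgf10 site of its own.

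Fgf7, a mesenchymal ligand for the epithelial form of Fgfr2, carried the member site with the widest difference in shared rank. The site chr2:126034293-126034743 overlapped the start of Fgf7, inside the span of Fam227b. Its summit pileups were 66 in the posterior trunk, 186 in brain, 143 in distal and 146 in proximal forelimb, and its folds were 3.88 in trunk, 10.04 in brain, 12.1 in distal and 12.05 in proximal forelimb although the trunk library was the deepest. Its shared rank was 5.82 in the posterior trunk against 63.2 in brain, 72.7 in distal and 74.3 in proximal forelimb. Only 4 of the 51657 sites called in every tissue (0.00774%) had a trunk shared rank at least 50 points under each of the other tissues, a limit set after these values were seen. The neighbouring site, chr2:126033252-126033797, 0.861 kb before the gene, did not share this pattern, with shared ranks of 49.0 in trunk, 48.4 in brain, 55.8 in distal and 55.6 in proximal forelimb. The site at the end of the gene, chr2:126090407-126090820, was highest in the trunk, at shared ranks of 37.9 in trunk, 15.99 in brain, 9.54 in distal and 13.8 in proximal forelimb. Across all members 29 of the 190 shared sites differed by more than 25 points of shared rank between tissues (15.3%), against 15.1% of all shared sites, so such differences were as frequent near FGF genes as elsewhere.

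The promoter sequence of Fgf7 (RefSeq, GRCm38.p6, the assembly of mm10; plus strand, chr2:126034408-126034707) is shown because it holds both the low-ranking trunk summit and a match to the core of the CTCF motif. The core was searched on both strands as a pattern of 12 positions, 7 of them fixed letters. Capitals mark the match, which reads on the strand opposite to the gene and whose middle lay 29.5 bases from the trunk summit.

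Fgf7 promoter: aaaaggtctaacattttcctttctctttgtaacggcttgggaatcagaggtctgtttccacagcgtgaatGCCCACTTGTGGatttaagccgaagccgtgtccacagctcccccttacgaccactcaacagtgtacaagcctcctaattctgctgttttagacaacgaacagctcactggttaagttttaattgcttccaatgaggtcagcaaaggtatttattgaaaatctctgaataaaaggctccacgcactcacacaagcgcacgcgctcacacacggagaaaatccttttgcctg

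A core match was present in 8.61% of all 32851 promoters of the table (300 bases each). It was present in 37.8% of the promoters that held the summit of a site called in all 4 tissues and in 5.90% of those that overlapped no site. A match describes the letters and is not a measured binding position. The promoter table held 33 promoters for 25 of the 34 members, and 8 of the 33 overlapped a site (24.2%), against 18.6% of all promoters. A core match was found in 4 of the 33, the Fgf7 promoter, which overlapped a site, and 1 promoter of Fgf6 and 2 of Fgf12, which overlapped none. The Fgf14 and Fgfr2 promoters overlapped sites called in all 4 tissues and held no core match. The summit of the Fgf14 site lay outside the promoter. Among all promoters that overlapped only the edge of a site called in all 4 tissues, 13.0% held a match. The members without an entry were Fgf1, Fgf8, Fgf15, Fgf16, Fgf17, Fgf20, Fgfr1, Spry4 and Etv4.

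In the promoters of Fgf10, Dusp6 and Spred2, whose sites were called in some tissues only, the trunk summit lay within the 300 bases and no core match was found. The same held for 1 promoter of Fgf12, chr16:28564446-28564745, which is not shown. Its trunk-only site stood at percentile 4.91 and was not called after scaling. The promoters of Fgf10, Dusp6 and Spred2 are shown for comparison with the Fgf7 promoter. Here capitals mark the 21 bases centred on the summit of the trunk peak, all 3 are on the plus strand of GRCm38.p6, and the positions are chr13:118714449-118714748, chr10:99262981-99263280 and chr11:19924192-19924491.
Fgf10 promoter: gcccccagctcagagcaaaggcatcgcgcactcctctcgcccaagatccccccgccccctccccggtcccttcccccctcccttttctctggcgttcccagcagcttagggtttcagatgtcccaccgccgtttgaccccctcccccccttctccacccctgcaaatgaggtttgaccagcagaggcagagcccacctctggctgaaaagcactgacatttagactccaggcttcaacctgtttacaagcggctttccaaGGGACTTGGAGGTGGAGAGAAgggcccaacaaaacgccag
Dusp6 promoter: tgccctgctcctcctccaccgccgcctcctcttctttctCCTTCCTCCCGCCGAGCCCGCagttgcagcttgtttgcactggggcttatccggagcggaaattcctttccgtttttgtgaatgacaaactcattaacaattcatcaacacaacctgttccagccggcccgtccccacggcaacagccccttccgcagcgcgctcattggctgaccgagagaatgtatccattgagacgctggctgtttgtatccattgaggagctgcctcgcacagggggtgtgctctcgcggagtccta
Spred2 promoter: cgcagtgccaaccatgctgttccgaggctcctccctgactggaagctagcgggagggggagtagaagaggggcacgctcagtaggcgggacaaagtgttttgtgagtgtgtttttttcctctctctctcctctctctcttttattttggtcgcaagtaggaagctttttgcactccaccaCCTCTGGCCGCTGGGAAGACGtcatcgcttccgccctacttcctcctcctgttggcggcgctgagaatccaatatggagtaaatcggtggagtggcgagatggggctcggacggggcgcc
The Fgf10 site was called in the posterior trunk only, at percentile 38.6. The Spred2 promoter site, chr11:19924168-19924589, was called in the posterior trunk (25.8) and brain (41.1), before and after scaling. All 3 promoter sites shown here were in the lower 50% of every list that called them.

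Of the remaining secreted ligands, Fgf22, which organises synapses, had the densest window of all members: 21 sites, 20.4 per 100 kb, 16 of them called in every tissue. None of them overlapped the short gene, and its strongest, chr10:79768100-79768856, lay 10.3 kb away in Rnf126 at 95.6 in trunk, 96.0 in brain, 91.2 in distal and 94.2 in proximal forelimb. At the other extreme Fgf16, a relative of Fgf9, had 2 sites in 112 kb (1.78 per 100 kb). Its shared site 1.18 kb from the span stood at 67.6 in trunk, 60.6 in brain, 61.4 in distal and 62.5 in proximal forelimb, and a distal-only site 10 kb away, chrX:105786536-105786757, stood at 15.2. Fgf20, the third gene of that subfamily, had 5 sites, 4 of them shared, and a very strong one 9.46 kb from the span at 97.1 in trunk, 98.4 in brain, 99.7 in distal and 99.4 in proximal forelimb. The 3 genes of the Fgf9 subfamily thus had at most 8 sites each.

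Fgf1 had 9 of its 12 sites called in all 4 tissues, with its strongest inside the gene at 99.5 in trunk, 98.3 in brain, 96.0 in distal and 97.2 in proximal forelimb. Fgf2 had 5 of 10, and its strongest lay 45.4 kb away at 97.4 in trunk, 93.2 in brain, 86.9 in distal and 85.6 in proximal forelimb. The Fgf2 span also held a site called in both forelimb lists and in no other, chr3:37383365-37383888, at 26.05 in distal and 20.5 in proximal forelimb. Sites of that pattern numbered 2 among the members (0.519%), against 0.332% of all sites. Fgf5, a regulator of hair growth, and the muscle ligand Fgf6 had 1 shared site each, of 8 and 6. The shared site reached at most 71.7 in any list near Fgf5 and at most 63.1 near Fgf6. The Fgf5 window held 4 trunk-only sites, and Fgf6 3.

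The endocrine ligands Fgf15, Fgf21 and Fgf23 had the highest shared fraction of any role, 27 of 39 sites (69.2%, 52.4 to 83.0%), against 42.4% of all sites. After scaling it was 27 of 33 (81.8%), against 53.6% of all sites. Of these 27, 15 were in the Fgf15 window. Fgf21, a fasting hormone of the liver, had 6 of 10 shared and none within 10 kb of the gene. Fgf23, the bone hormone that controls phosphate, had a site at its start, chr6:127072867-127073260, called in the posterior trunk at percentile 70.3 (pileup 143, fold 9.81) and in proximal forelimb at 19.3 (pileup 23, fold 3.97). It was called in neither brain nor distal forelimb, before or after scaling. Of the 31998 trunk sites at percentile 70 or above, a limit set after these values were seen, 33 were not called in brain (0.103%). Nearby, Fgf23's strongest shared site within the gene stood between 83.2 and 89.4 in the 4 lists.

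The intracellular FGF homologous factors Fgf11 to Fgf14 bind voltage-gated sodium channels and are not secreted. Fgf12, Fgf13 and Fgf14 have spans of 595 kb, 523 kb and 703 kb, and 44 of the 66 sites of the 4 genes lay inside a span. Fgf12 had 24 sites (12 shared), Fgf13 13 (8 shared) and Fgf14 14 (7 shared), which gave Fgf14 the lowest density of the members, 1.74 per 100 kb. Fgf11 is short and lies among close neighbours, and had 14.0 per 100 kb. Strong shared sites were found in or near all 3 long genes, such as chrX:59172199-59172845 within Fgf13 at 99.4 in trunk, 97.0 in brain, 95.5 in distal and 94.9 in proximal forelimb. The brain had a site of its own inside Fgf14, chr14:124195848-124196131, at percentile 41.7 (fold 4.50), called in brain only before and after scaling. A second brain-only site in Fgf14 stood at 7.518 and was not called after scaling. Single-tissue sites of the Fgf14 window were not particular to brain. It also held 4 trunk-only sites, 2 of them trunk only after scaling, and 1 distal-only site, before and after scaling. Fgf11, Fgf12 and Fgf13 had no brain-only site and had 6, 8 and 2 trunk-only sites.

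Within Fgf13 a further site, chrX:59179028-59179376, overlapped the promoter of the predicted gene Gm36570 and ranked unevenly: its shared rank was 12.2 in the posterior trunk, 37.3 in brain, 3.67 in distal and 36.4 in proximal forelimb. The distal and proximal forelimb thus differed there although their depths were alike, with pileups of 19 in distal and 46 in proximal forelimb. A pair of sites at other genes in the Fgf22 window, at the promoters of Palm and Polrmt, and a site in the Fgf11 window at the promoter of Gm39566 also held a core match, and stretches of 92 bases around the matches are shown; the search itself fixed 7 of the 12 core letters. Capitals mark the core, on the strand of each gene, in GRCm38.p6 at chrX:59179159-59179250 (plus), chr10:79793490-79793581 (plus), chr10:79746546-79746637 (minus) and chr11:69815318-69815409 (minus).
Gm36570 promoter: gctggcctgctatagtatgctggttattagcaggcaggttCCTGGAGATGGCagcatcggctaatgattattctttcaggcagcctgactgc
Palm promoter: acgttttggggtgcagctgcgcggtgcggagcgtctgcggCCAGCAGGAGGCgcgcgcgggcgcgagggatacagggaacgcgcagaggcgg
Polrmt promoter: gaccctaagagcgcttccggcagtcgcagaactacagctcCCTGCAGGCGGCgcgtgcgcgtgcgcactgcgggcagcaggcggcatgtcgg
Gm39566 promoter: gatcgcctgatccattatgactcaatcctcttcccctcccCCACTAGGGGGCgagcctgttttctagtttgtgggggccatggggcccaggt
The Palm site was called in all 4 tissues at 79.1 in trunk, 83.1 in brain, 88.9 in distal and 87.4 in proximal forelimb. The Polrmt site was called in all 4 at 63.3 in trunk, 34.1 in brain, 24.3 in distal and 41.96 in proximal forelimb. The Gm39566 site was called in the posterior trunk (59.5), brain (18.1) and distal forelimb (14.5). Sites with a core match thus ranged from the weaker to the stronger parts of the lists.

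The 4 receptors, tyrosine kinases that secreted ligands bind with differing preference, had alike windows: 15 sites each for Fgfr1, Fgfr3 and Fgfr4 and 17 for Fgfr2, with 10.5 sites per 100 kb over the merged windows and 31 of 62 called in all 4 tissues (50%, 37.0 to 63.0%). Each had at least 1 strong shared site outside its span. The Fgfr2 site chr7:130273037-130273717, 6.23 kb before the gene, stood at 93.6 in the posterior trunk, 96.1 in brain, 96.2 in distal and 97.5 in proximal forelimb. The strongest site of Fgfr1 lay 22.9 kb away at 93.3 in trunk, 89.2 in brain, 92.5 in distal and 93.0 in proximal forelimb. That of Fgfr3 lay 45.2 kb away, near Tacc3, at 93.8 in trunk, 91.8 in brain, 90.7 in distal and 85.0 in proximal forelimb. That of Fgfr4 lay 21.3 kb away at 95.1 in trunk, 91.5 in brain, 87.8 in distal and 83.5 in proximal forelimb. The lowest of these 16 percentiles was the proximal forelimb value of Fgfr4.

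Receptor windows also held sites of single tissues. A site called in both forelimb lists only, chr7:130288582-130288871, lay 21.8 kb from Fgfr2 at 39.4 in distal and 7.66 in proximal forelimb, before and after scaling. A brain-only site, chr5:33695180-33695438, lay 26.3 kb before Fgfr3 at 34.5, before and after scaling. At the low-coordinate end of Fgfr1, chr8:25518645-25518924 was called in brain (13.6), distal forelimb (14.95) and proximal forelimb (36.5) and not in the posterior trunk; after scaling it was called in both forelimb lists only. Sites missing from posterior trunk alone numbered 3 among the members (0.779%, 0.161 to 2.26%, in Fgfr1, Fgf13 and Etv4), against 0.289% of all sites. After scaling 2 member sites had that pattern (0.631%), against 0.641% of all sites, and of the 3 the Etv4 site kept it. Sites missing from brain alone numbered 5 (1.299%), against 1.47% of all sites, and lay near Fgf1, Fgf8, Fgf11 (2 sites) and Spry4.

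The 6 feedback inhibitors had the lowest shared fraction of the roles, 25 of 68 sites (36.8%, 25.4 to 49.3%). Their trunk-only fraction was the highest, 27 of 68 (39.7%, 28.0 to 52.3%). Over all sites the shares were 42.4% and 28.4%, both inside these intervals, so neither fraction was beyond counting error. After scaling, 20 of 47 were called in all 4 tissues (42.6%), against 53.6% of all sites. In the trunk only there were 10 of 47 (21.3%), against 19.7% of all sites. That was below the 29.4% of the ETS targets, so the trunk-only fraction was the highest as deposited only. Spred2, an inhibitor of RAS and RAF signalling, accounted for 11 of the 27 trunk-only sites, of which 3 were trunk only after scaling. Dusp6, the phosphatase that inactivates ERK, had no site called in all 4 tissues among its 8. It was the only member without any, against 12.8% of coding genes. Its promoter site, chr10:99262667-99263191, was called in the posterior trunk (45.5), brain (12.48) and distal forelimb (11.1), and in the posterior trunk and distal forelimb after scaling. The proximal forelimb list had no site in the Dusp6 window.

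The Sprouty genes, whose products block receptor signalling upstream of MAPK, each had a shared site close by. Spry2's, chr14:105898721-105899419, lay 1.902 kb before the gene on its promoter side at 91.2 in the posterior trunk, 97.5 in brain, 99.3 in distal and 99.2 in proximal forelimb. Spry1's, chr3:37640818-37641303, lay inside the gene at 81.8 in trunk, 82.4 in brain, 81.5 in distal and 80.8 in proximal forelimb. Spry4's strongest lay 4.998 kb away at 74.6 in trunk, 62.8 in brain, 61.1 in distal and 56.7 in proximal forelimb. Of these, Spry1 had the most even percentiles over the 4 tissues. In shared rank Spry4 was the most even, with a range of 4.74 points, against 14.5 for Spry1 and 17.3 for Spry2. Spred1 had 7 of 10 sites shared, and its strongest, chr2:117231049-117231829, 48.8 kb past the gene, was with Etv4's the strongest shared site of the members by its lowest percentile, at 99.6 in trunk, 99.0 in brain, 99.2 in distal and 98.5 in proximal forelimb. Spred2's strongest lay 7.42 kb past the gene at 93.1 in trunk, 78.1 in brain, 80.3 in distal and 80.1 in proximal forelimb.

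The ETS targets Etv4 and Etv5 are read as markers of active FGF signalling in limb and trunk. Etv5 had 8 sites, 4 of them shared, the strongest of these inside the gene at 66.0 in trunk, 70.5 in brain, 65.7 in distal and 69.1 in proximal forelimb. Etv4 had 14 sites and 5 shared. Its strongest, chr11:101732456-101733204, 36.5 kb away at the neighbouring gene Dhx8, stood at 98.5 in trunk, 99.5 in brain, 99.7 in distal and 99.8 in proximal forelimb.

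Etv4 also carried the most unequal site of the FGF genes. The site chr11:101769793-101770643, 851 bases wide and inside the low-coordinate end of the Etv4 span, was not called in the posterior trunk. It stood at percentile 48.5 in brain, 96.2 in distal and 6.80 in proximal forelimb. Its summit pileups were 69 in brain, 288 in distal and 19 in proximal forelimb, over local backgrounds of 11.5 in brain, 21.5 in distal and 5.52 in proximal forelimb. Its folds were 5.62 in brain, 12.8 in distal and 3.07 in proximal forelimb. The distal forelimb was thus far above the proximal forelimb at nearly the same depth, and the pattern was the same after scaling. Of the 3240 distal forelimb sites at percentile 95 or above, this was the only one not called in all 4 tissues (0.0309%). Among 5334 such sites in the posterior trunk, 3707 in brain and 3194 in proximal forelimb there was none. Of the 54204 sites called in both forelimb lists, it was also the only one whose distal percentile exceeded the proximal one by more than 80 points, and none differed so far the other way; both limits were set after these values were seen. Within the same gene, further on, chr11:101772528-101773033 was called in the posterior trunk only, at 59.5 (pileup 93, fold 6.80), the highest percentile of any trunk-only member site. It was trunk only after scaling too. The Etv4 span therefore held 2 sites, with different tissues calling them.

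**Figure D4:**
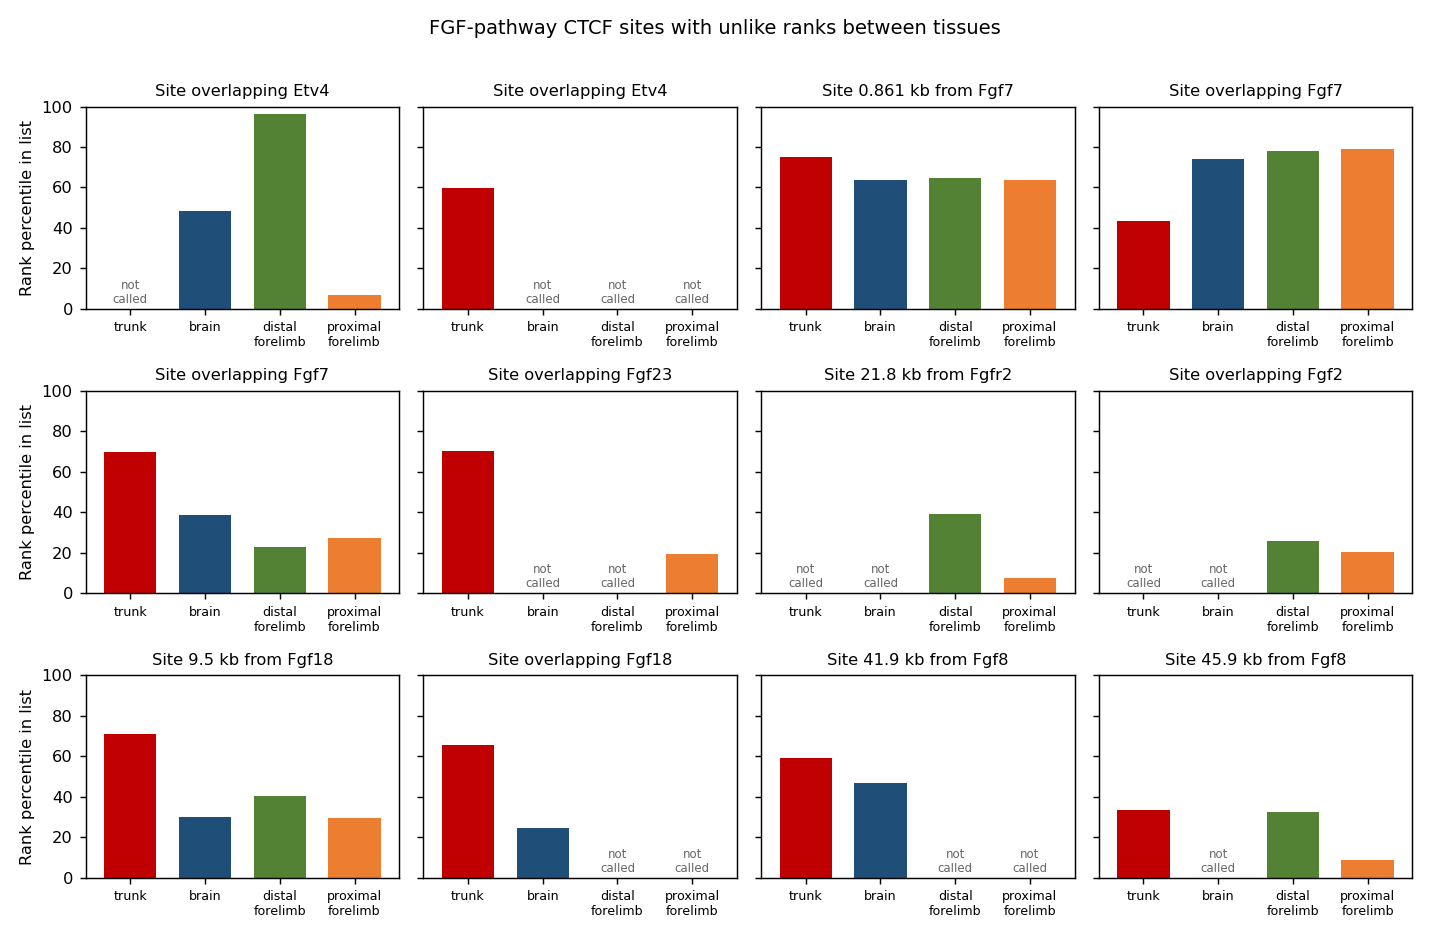
Bars give the rank percentile within each tissue's list (y axis, 100 is the strongest) for 12 member sites, 1 panel per site, with the 4 tissues on the x axis and "not called" where the list has no peak. The first panel shows the Etv4 site at 96.2 in distal forelimb, 6.80 in proximal forelimb and not called in the posterior trunk, and the fourth the Fgf7 start site, lowest in the posterior trunk.

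By tissue, sites called in only 1 list were spread over many of the genes. Trunk-only sites lay near 33 of the 34 members, against 80.7% of coding genes, and after scaling near 28, against 66.5%. Sites that were trunk only before and after scaling were most frequent near Fgf12 (5) and Fgf10 (4). Brain-only sites lay near 5 members, against 31.3% of coding genes, and after scaling near 2, against 9.8%. Distal-only sites lay near 10 members, against 18.4% of coding genes, and after scaling near 12, against 17.8%. None of the 11 distal-only sites ranked above percentile 19.8. Proximal-only sites lay near 5 members, against 15.1% of coding genes, and after scaling near 7, against 17.3%; they reached 17.1 at most. A site of any pattern overlapped the span of 28 members, against 68.7% of coding genes.

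**Figure D5:**
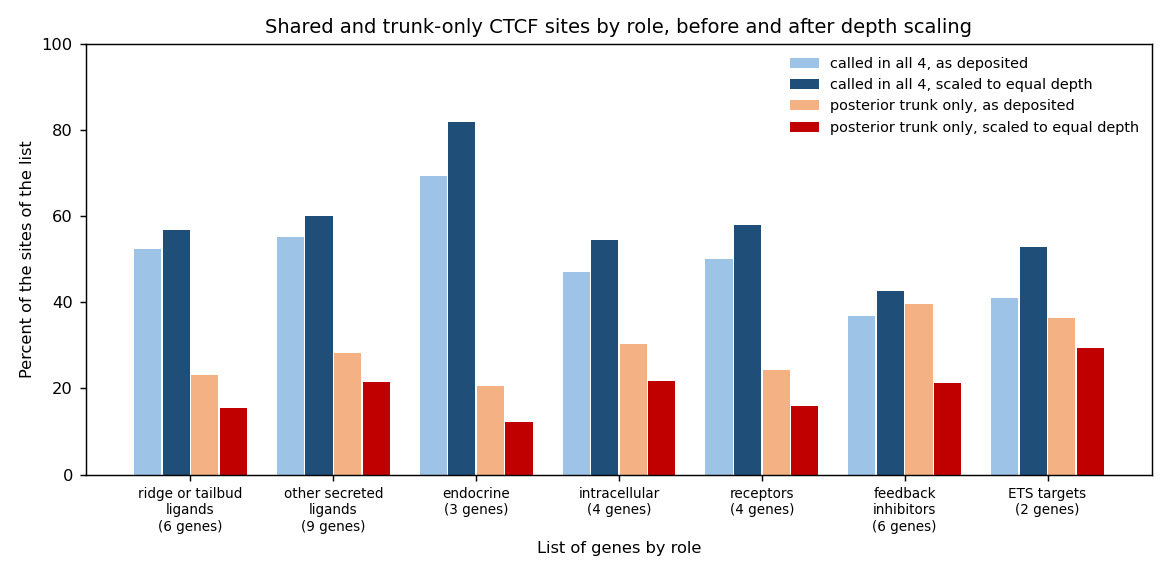
Bars give the percent of each role's sites (y axis) that were called in all 4 tissues (blue) or in the posterior trunk only (red), as deposited in the light shade and after scaling to equal depth in the dark shade, for the 7 roles on the x axis. In every role the shared percent is higher after scaling and the trunk-only percent lower, with the endocrine ligands highest in shared sites at 69.2% and 81.8%.

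In rank, the member sites as deposited lay near the middle of the posterior trunk and distal forelimb lists and somewhat above it in brain and proximal forelimb. Their median percentile was 52.8 in the posterior trunk, against 50.04 for all sites of that list. It was 59.3 in brain against 50.1, 50.9 in distal forelimb against 50.1, and 55.9 in proximal forelimb against 50.2. After scaling, the member medians were 55.0 in the posterior trunk, 52.2 in brain, 51.2 in distal and 54.6 in proximal forelimb. The 32 other genes of the FGF, RAS and MAPK pathway listed for comparison had a median of 9.03 sites per 100 kb, against 7.996 for the 34 members. In their median window 48.5% of sites were shared. A trunk-only site lay near 29 of the 32, against 80.7% of coding genes, and a brain-only one near 8, against 31.3%. A distal-only site lay near 9, against 18.4%, and a proximal-only one near 4, against 15.1%.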

How the data were processed

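CTCF ChIP-seq peak lists of 4 tissues, 1 library each, were grouped by the tissue in the labels. Per the submitters' processing notes, MACS2 2.1.1.20160309, Bowtie2 2.3.5, cutadapt 1.16 and SAMtools 1.9 were used on mm10; options, and whether an input library served, are not stated in the sources here. Each deposited row holds a fold (the ratio of summit pileup to local background, with 1 added to both), a −log10 p-value, a −log10 q-value (lowest near 1.30, a q of 0.05), a score and a summit offset. Folds are the authors' values. They, and ranks by p, describe peaks within 1 list.

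Fold and −log10 p together gave back each whole pileup and background, with an error of at most 0.00031 in −log10 p. Relative depth was taken from each list's lowest background. For equal depth, both were scaled down to distal forelimb and a −log10 p of at least 5 was required. Rows with 1 interval and several summits were merged; chromosomes 1 to 19, X and Y were used. Coordinates are 1-based, and promoters run from 250 bases before to 50 after a start. RefSeq gene spans came without exons, so exon or intron location was not analysed here, and all 34 symbols matched. Exact (Clopper-Pearson) intervals were computed; no test was run. Recovery and pattern calls were checked on simulated data. Python 3.11.15, numpy 2.4.6, pandas 2.3.3, scipy 1.17.1 and matplotlib 3.10.9 were used.

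The members and lists were chosen with earlier results of these data known. Named with values are the ridge and tailbud ligands with sites of their windows, the strongest site called in all 4 tissues of Fgf10, the receptors, inhibitors and ETS targets, sites called in 1 to 3 tissues with the same pattern after scaling (many of these by counts and ranges only), and the members with the fewest and most sites; other sites were added after their values were seen.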

Additional observations from a re-analysis of the deposited data

How the results depend on the processing

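No paired analysis was possible because there was a single library for each tissue. Of 103 values recomputed under 7 alternatives, 79 stayed close and 24 moved. The limit was wide: a count was called close up to a ratio of 1.5 to its main value. The 262 sites in windows of 25 kb were thus called close to the 385 of the main setting. With windows of 100 kb on each side there were 598 sites, 301 of them called in all 4 tissues, 174 in posterior trunk only and 11 in brain only, and 19.1% overlapped a member span. With windows of 25 kb, 73 were trunk only, 3 brain only and 3 proximal only, and 43.5% overlapped a span. With a −log10 q of at least 5, 6 were distal only. After scaling to equal depth, 61 were trunk only, 2 brain only and 8 proximal only, the shared percent of the members other than ridge and tailbud ligands was 58.2%, and the median brain percentile was 52.2. With each list cut to equal length, 18 were trunk only, 18 distal only and 12 proximal only, and that shared percent was 66.1%. Without the posterior trunk list, 17 were brain only, 21 distal only and 17 proximal only, and the percent shared by the 3 remaining tissues was 68.6% for the ridge and tailbud ligands and 71.8% for the other members. The density of the ridge and tailbud windows stayed above that of the other members in all 7 alternatives, at 8.34 to 10.95 against 4.34 to 6.40 sites per 100 kb. Every alternative kept the sparse windows of the intracellular FGF homologous factors among the other members. Without those factors, under the main setting, the other members had 7.38 sites per 100 kb in their spans and 8.73 in their flanks. Trunk-only counts thus moved under scaling, which also required a −log10 p of at least 5, and under equal list length. Depth alone was not varied. A site missing from a shallower list was not called there at that depth, which does not show that it was unbound.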
